A study of Apis mellifera with 18 samples.

Results

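In RNA-seq Experiment 2, 203 genes were higher in brains of honeybee queens (Apis mellifera) inseminated with semen, which holds sperm, than in brains of queens inseminated with seminal fluid freed of sperm. These 203 genes, called the members here, were taken from 15314 annotated genes. Of the annotated genes, 8571 had a mean of at least 5 CPM, the count scaled to the total gene count of its library, over the 18 libraries. The members were chosen by values of these libraries, since each had all 3 semen libraries of Experiment 2 above all 3 seminal fluid libraries, and a difference between the group means of log2(CPM + 1) of at least 0.4. One further gene, chaoptin (GB41723), met the rule and was left out of the set by design.

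The 18 libraries formed 6 groups of 3, lettered A to C, and brains of 3 queens, whose heads were frozen 24 h after insemination, were pooled in every library. All queens were reared from larvae of a single colony and were anaesthetized with CO2 first 4 days after hatching, then at insemination and at collection, so the controls had CO2 too. In Experiment 1, queens received 6 µl of fresh semen from about 10 males, 6 µl of seminal fluid, or a mock insemination with no fluid. In Experiment 2, queens received 6 µl of semen, 6 µl of seminal fluid, or 6 µl of Hayes saline, a buffered salt solution used to dilute bee semen. The seminal fluid was the supernatant of centrifuged semen of many drones and was thawed from frozen aliquots, whereas semen was used fresh, so the presence of sperm cannot be told apart from storage or from the drones that gave the fluid. The labels do not say that the pools came from separate rearings, so p values measure the spread between these pools. In pooled whole brains, a lower level of a transcript can come from fewer cells of a type or from less RNA per cell, and these cannot be told apart.

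A honeybee queen mates in flights early in life and stores the sperm in her spermatheca for the rest of her life. Seminal fluid is the secretion of the male accessory glands, and in insects its proteins and small molecules are known to reach the female blood and to change female behaviour and physiology. Sperm are cells with RNA and metabolism of their own, so whole semen and seminal fluid differ in cells as well as in dissolved factors.

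The files give gene identifiers of the honeybee gene set and do not pair them with names. Of the 15314 identifiers, 57 were in the lists of the study used here, and 48 of these had a name there. These lists were its genes changed in both experiments and its genes of the phototransduction pathway. Its full lists of changed genes were not compared with the members. None of the 57 was a member, with chaoptin left out by design, and no identifier matched a RefSeq gene table. The members are therefore given by identifier, and no role is given to any of them.

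Library totals ranged from 26636844 to 51745752 counts in genes. Seminal fluid library C of Experiment 2 stood apart in the gene with the highest mean CPM over all 18 libraries. This gene took 8.90% of its counts, against 0.840% to 1.40% in the other 5 semen and seminal fluid libraries of that experiment. Its share of reads outside genes was 18.1%, against 19.7% to 20.7% in those 5 libraries. This library was the lowest of the seminal fluid libraries in 143 of the 203 members, library B in 52 and library A in 8. Without it, and with the rule applied to the remaining 5 libraries, the Hayes saline values given below moved, as stated there.

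The rule selected 2.37% of the 8571 genes, and the mirror of the rule, with seminal fluid above semen, selected 431 genes or 5.03%. With TMM, another scaling of the counts, the rule selected 302 genes, and the mirror was not recounted. In the study's own DESeq2 comparison of these groups, more genes were higher after semen than after seminal fluid. The balance of the rule and its mirror was thus counted only with plain CPM and this rule, and its cause was not tested. At any size of difference, 853 genes had all semen libraries above all seminal fluid libraries and 807 had the opposite. The median difference of the members was 0.50 on the log2 scale, against -0.04 over all 8571 genes. The largest was 1.94, 20 members differed by at least 1, and 101 differed by less than 0.5. These values describe the choice and were not tested. Just inside the threshold lay GB53722, GB52107 and GB52929, with differences between 0.4001 and 0.4016, and just outside it lay GB51081, GB53946 and GB43618, between 0.3985 and 0.3995.

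By the mean over all 18 libraries, the members were more abundant than genes in general. Their mean CPM ranged from 5.27 to 15374 with a median of 53.6, against a median of 33.6 over all 8571 genes. A mean of at least 1000 CPM was seen in 18 members, 8.87%, against 1.44% of all genes, and 77 members, 37.9%, had at least 100 CPM, against 20.0%. At the other end, 51 members had a mean under 20 CPM. The higher abundance was not seen in every group. The median of the members minus that of all genes, in log2(CPM + 1), averaged 1.21 to 1.38 in the groups of Experiment 1. In Experiment 2 it averaged 0.34 after semen, -0.02 after Hayes saline and -0.29 after seminal fluid. The members together took 6.69% to 8.31% of all gene counts in the semen libraries of Experiment 2 and 4.81% to 5.60% in the seminal fluid libraries.

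**Figure D1:**
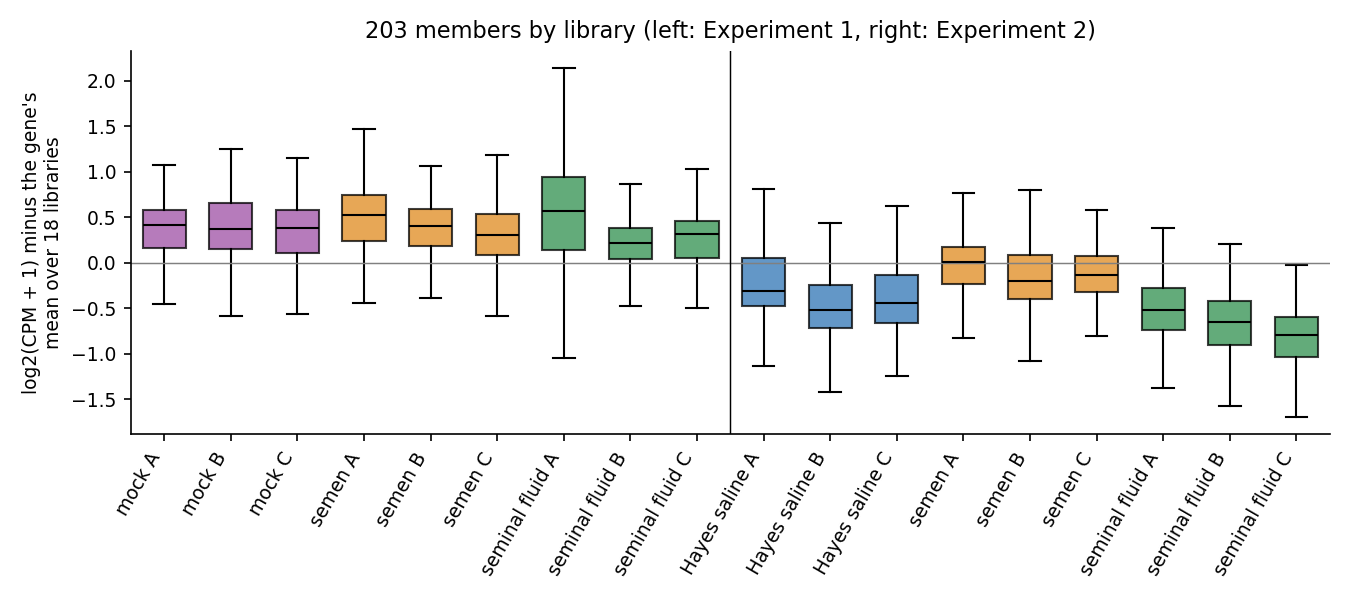
Level of the 203 members in each of 18 libraries, as log2(CPM + 1) minus the mean of that gene over all libraries (y axis). Boxes span the quartiles with the median as a line, whiskers reach the most distant value within 1.5 times the interquartile range, and points beyond them are not drawn. The medians of Experiment 1 lie above those of Experiment 2, seminal fluid library C of Experiment 2 is lowest, and the semen medians of Experiment 2 lie above the seminal fluid medians because the genes were chosen so.

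The largest difference was in GB40619. It had 159, 319.9 and 179 CPM in semen libraries A, B and C of Experiment 2, against 88.8, 103 and 16.4 CPM in the seminal fluid libraries. Its Hayes saline libraries had 295, 77.8 and 184 CPM. The saline range thus reached from below the highest seminal fluid library to near the highest semen library. In Experiment 1, the gene had 458, 239.9 and 555 CPM after mock insemination, 146, 482 and 195 CPM after semen, and 546, 102 and 269 CPM after seminal fluid. The semen and seminal fluid libraries of Experiment 1 overlapped over most of their range.

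GB50613 was second. It had 14.3, 5.85 and 8.75 CPM after semen, 1.09, 3.10 and 2.04 CPM after seminal fluid and 8.03, 7.04 and 4.59 CPM after Hayes saline in Experiment 2, so that all saline libraries lay above all seminal fluid libraries. In Experiment 1 it had 133, 172 and 187 CPM after semen, 70.2, 104 and 18.5 CPM after seminal fluid, and 10.53, 37.5 and 60.1 CPM after mock insemination. Semen was highest in both experiments, and the level of the gene was far higher in Experiment 1 than in Experiment 2.

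GB47270 and GB42557 went with Hayes saline as much as with semen. GB47270 had 26.8, 37.5 and 10.0 CPM after semen, 9.39, 3.797 and 5.40 CPM after seminal fluid, and 34.1, 19.1 and 35.6 CPM after Hayes saline. GB42557 had 43.8, 100.8 and 20.9 CPM after semen, 17.2, 10.5 and 15.2 CPM after seminal fluid, and 122, 55.1 and 71.2 CPM after Hayes saline. In both genes all saline libraries lay above all seminal fluid libraries and overlapped the semen libraries. In GB42557 the difference of group means was 1.63 on the log2 scale in Experiment 2 and 2.59 in Experiment 1, where 1 seminal fluid library had 0.0783 CPM and the groups overlapped (11.7 to 94.2 CPM after semen, 0.0783 to 12.7 CPM after seminal fluid).

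Of the other members with a difference among the 10 largest, GB48511 was scarce, with 0.832 to 4.77 CPM after semen and 0.314 to 0.608 CPM after seminal fluid in Experiment 2, and it ranged from 0.936 to 38.3 CPM within the semen group of Experiment 1. GB47217 had 59.5, 64.5 and 62.5 CPM after semen and 55.6, 20.6 and 16.2 CPM after seminal fluid in Experiment 2. Seminal fluid library A thus lay close to the semen libraries, and Hayes saline libraries ranged from 18.1 to 54.0 CPM.

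**Figure D2:**
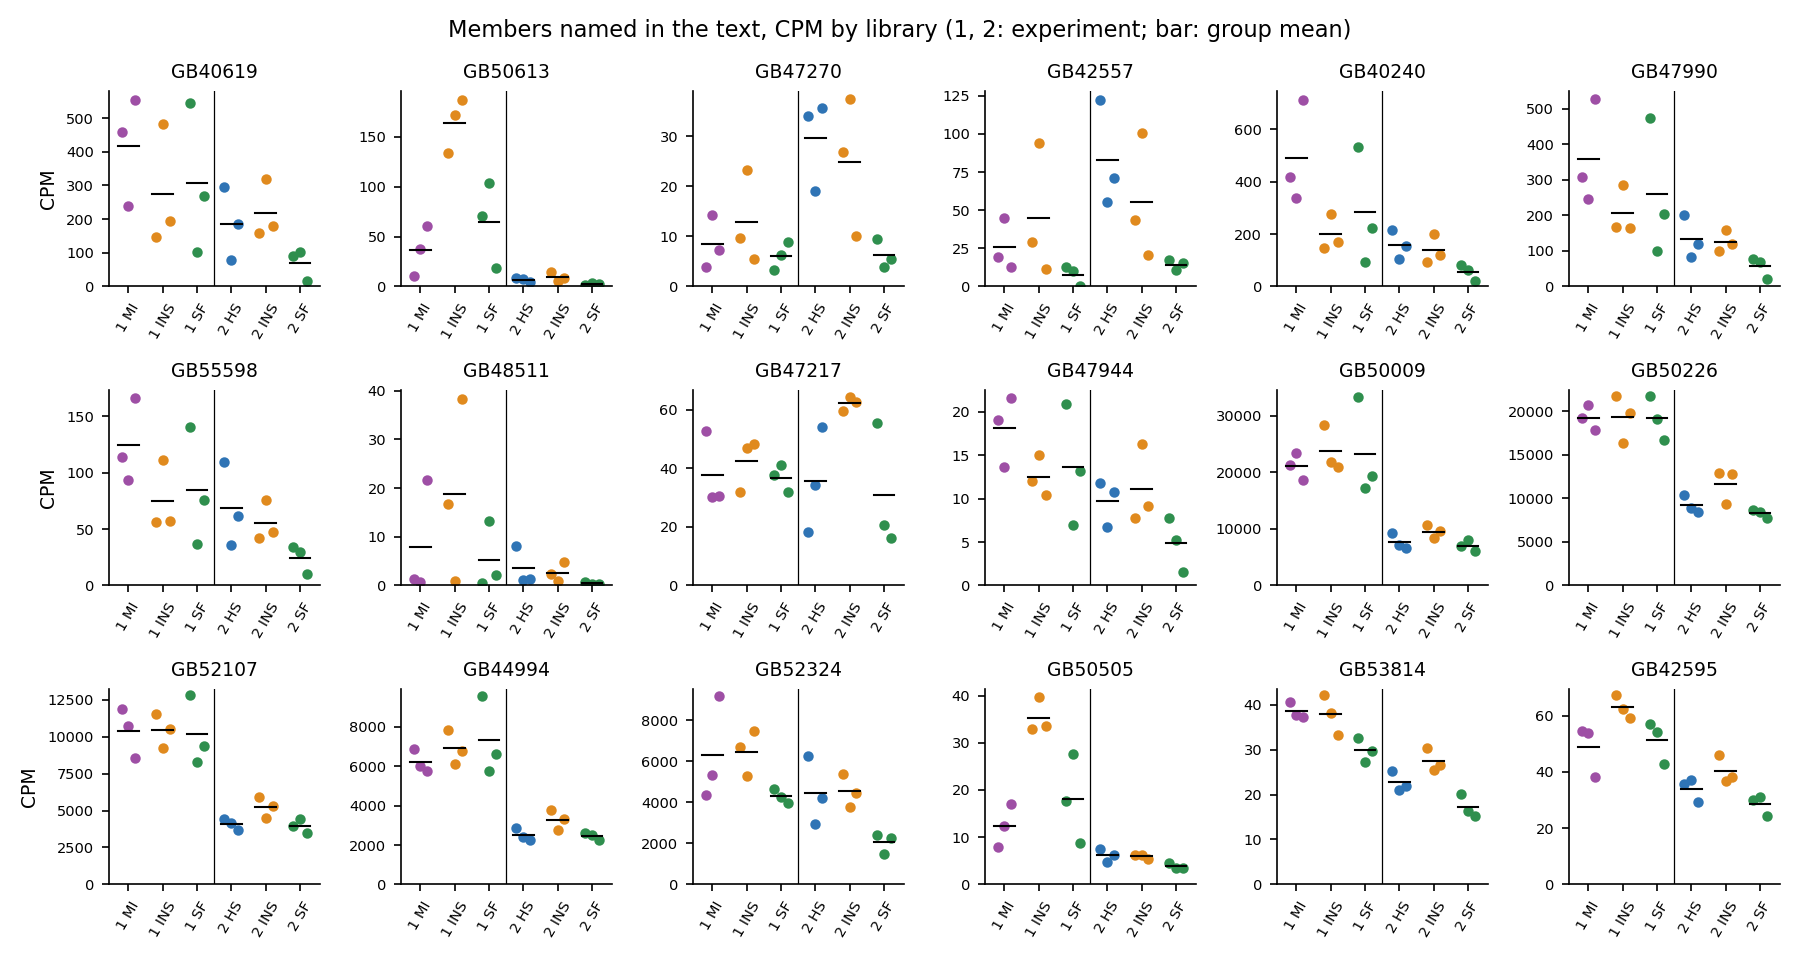
CPM (y axis, from 0) in every library of the 10 members with the largest Experiment 2 difference, the 5 with the highest mean level and the 5 whose semen libraries were wholly above the seminal fluid libraries in Experiment 1, which overlap to give 18 genes. Points are libraries, black bars are group means, and MI, INS, SF and HS are mock, semen, seminal fluid and Hayes saline. GB40619, GB40240, GB47990, GB55598 and GB47944 share their highest pool in every group except seminal fluid of Experiment 2, and GB50009, GB50226, GB52107 and GB44994 are higher in all of Experiment 1 than in all of Experiment 2.

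The remaining 4 of the 10 largest, GB40240, GB47990, GB55598 and GB47944, moved with GB40619 from pool to pool. Over the 12 libraries of the 4 groups that the rule did not use, and after subtraction of each group's mean, 19 members correlated at 0.8 or more with GB40619, itself included. These were 9.36% of the members, against 0.642% of all 8571 genes (55 genes). The 19 held 5 of the 10 and 11 of the 20 largest differences. Since the gene that defines them was chosen for its difference, and the 12 points share libraries and depth, the share is a description.

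The 19 genes had 214 to 590 CPM in sum in the seminal fluid libraries of Experiment 2, where library C was lowest. They had 767 to 1314 CPM in the semen libraries and 619 to 1530 CPM in the Hayes saline libraries of that experiment. In Experiment 1 the sum was 1689 to 3508 CPM after mock insemination, 1107 to 2100 CPM after semen and 729 to 2943 CPM after seminal fluid. The lowest and the highest seminal fluid pool of Experiment 1 thus differed more than the group means of Experiment 2. In 17 of the 19 genes the range within that single group, on the log2 scale, was larger than the difference that had made the gene a member. A wide spread was not limited to these genes. In 143 of the 203 members the range within any of the 4 groups that the rule did not use was larger than that difference. The median SD between pools of a group was 0.688 on the log2 scale for the 19 genes, against 0.235 for the other 184 members and 0.198 for all genes. The median Experiment 1 difference of semen minus seminal fluid was -0.01 over the 19 genes, of which 8 were higher after semen. Over the other 184 members it was 0.06, and 119 of these were higher after semen.

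A second set of 40 members correlated at 0.8 or more with GB44994, the member with the most such partners, and shared no gene with the first. It made up 19.7% of the members, against 1.76% of all genes (151 genes), but GB44994 was picked for its number of partners among the members, so the larger share was fixed by that choice. These were abundant genes, with a median mean level of 182 CPM, and 9 of them were above 1000 CPM. GB44994 itself had 3763, 2785 and 3342 CPM after semen, 2589.9, 2524 and 2239 CPM after seminal fluid and 2843, 2393 and 2241 CPM after Hayes saline in Experiment 2. In Experiment 1 it had 6865, 6016 and 5764 CPM after mock insemination, 7843, 6122 and 6790.3 CPM after semen and 9588, 5770.2 and 6649 CPM after seminal fluid, so all 9 libraries of Experiment 1 were above all 9 of Experiment 2. The mean of log2(CPM + 1) over the 40 genes was 7.83 to 8.55 in the libraries of Experiment 1 and 6.72 to 7.52 in those of Experiment 2. Their median difference in Experiment 2 was 0.49 and their median difference in Experiment 1 was 0.05. Of these 40 genes, 32 stood nearer to seminal fluid than to semen after Hayes saline, whereas 17 of the 19 genes of the first set stood nearer to semen. The genes of a set vary together by its definition, over libraries that include Hayes saline, so they are not independent cases.

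**Figure D3:**
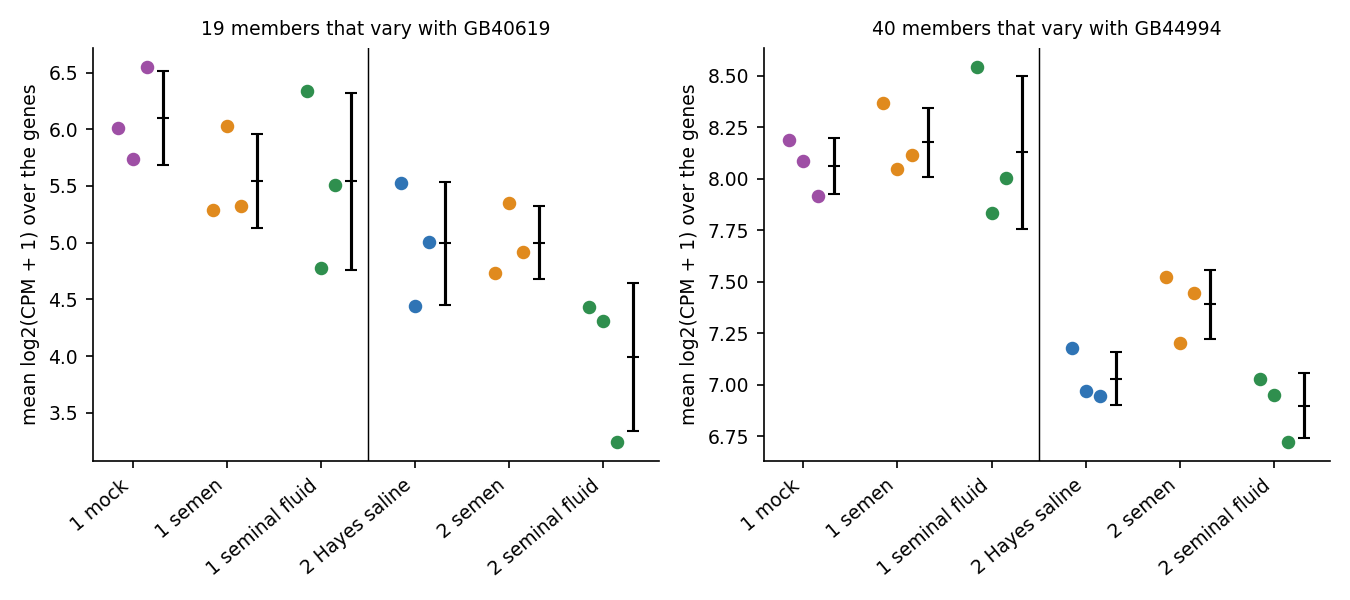
Mean of log2(CPM + 1) over the 19 members that vary with GB40619 (left) and over the 40 members that vary with GB44994 (right), by library. Colored points are libraries in the order A, B and C, and the black bars give the mean ± SD of the 3 libraries of a group. On the left the seminal fluid points of Experiment 1 spread from 4.78 to 6.33 and overlap every other group except seminal fluid of Experiment 2, and on the right the libraries of Experiment 1 (7.83 to 8.55) lie above those of Experiment 2 (6.72 to 7.52).

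The 3 most abundant members showed the same shift between experiments. GB50009 had 10684, 8352 and 9536 CPM after semen, 7025, 7949.6 and 6052 CPM after seminal fluid and 9181, 7114 and 6622 CPM after Hayes saline in Experiment 2, and 17198 to 33269 CPM in the 9 libraries of Experiment 1. GB50226 had 12915, 9339.7 and 12784 CPM after semen, 8713, 8485 and 7745 CPM after seminal fluid and 10407, 8916 and 8453 CPM after Hayes saline, against 16392 to 21825 CPM in Experiment 1. GB52107 had 5914, 4493 and 5292 CPM after semen, 3987, 4440.1 and 3449 CPM after seminal fluid and 4439, 4162 and 3709 CPM after Hayes saline, against 8307 to 12802 CPM in Experiment 1. In all 3 genes the lowest semen library and the highest seminal fluid library of Experiment 2 differed by far less than the 2 experiments. Their semen minus seminal fluid differences in Experiment 1 were 0.07, 0.01 and 0.06 on the log2 scale.

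The Hayes saline group did not enter the choice, and it places the difference against a control without semen. On a scale from the seminal fluid mean (0) to the semen mean (1), the saline mean of a member had a median of 0.459. It lay below the seminal fluid mean in 17 members, from there to the midpoint in 90, from the midpoint to the semen mean in 62, and above the semen mean in 34. By this measure 107 members stood nearer to seminal fluid and 96 nearer to semen after saline. In 82 members all saline libraries were below all semen libraries, which is 40.4% against 7.40% of all genes, and in 66 all saline libraries were above all seminal fluid libraries, which is 32.5% against 5.99%. Both held in 6 members and neither in 61. All saline libraries were above all semen libraries in 0 members (6.45% of all genes), and below all seminal fluid libraries in 1 (2.82% of all genes), GB40074. Since the rule raised the semen group and lowered the seminal fluid group of every member, both shares had to lie above those of all genes, and they are no test. Which fluid saline was nearer to turned with single libraries. Without seminal fluid library C the median was 0.697 and 66 of the 205 genes then selected stood nearer to seminal fluid, and without semen library A these were 0.649 and 68 of 170. Without seminal fluid library A it was 177 of 374, without saline library B or C 100 and 99 of 203, and without the most abundant gene in the totals 78 of 159.

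Outside the interval between the 2 fluids lay the 17 and 34 members counted above, and the 5 farthest on each side are named. GB54817, the farthest above semen, had 66.3, 68.5 and 91.7 CPM after semen, 47.5, 48.5 and 32.5 CPM after seminal fluid, and 240.1, 72.4 and 84.8 CPM after Hayes saline, where library A set the mean. GB43247 had 2197, 2879 and 2221 CPM after semen, 2172, 1414 and 1726 CPM after seminal fluid, and 2625, 2937 and 3011 CPM after Hayes saline. All saline libraries of GB43247 lay above all seminal fluid libraries. GB43409, GB45174 and GB50112 had saline means at 1.56, 1.52 and 1.51 on the same scale. At the other end, GB40074 had 121, 109.5 and 98.5 CPM after semen, 79.8, 83.6 and 76.3 CPM after seminal fluid and 36.1, 72.2 and 69.2 CPM after Hayes saline. GB42539 had 32.5, 22.4 and 31.3 CPM after semen, 20.9, 21.0 and 15.9 CPM after seminal fluid and 16.7, 12.6 and 14.8 CPM after Hayes saline. In GB40074 the 3 groups did not overlap and were ordered saline, seminal fluid, semen, and in GB42539 saline library A overlapped the seminal fluid libraries. GB55603, GB48701 and GB50292 lay at -0.674, -0.575 and -0.520.

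**Figure D4:**
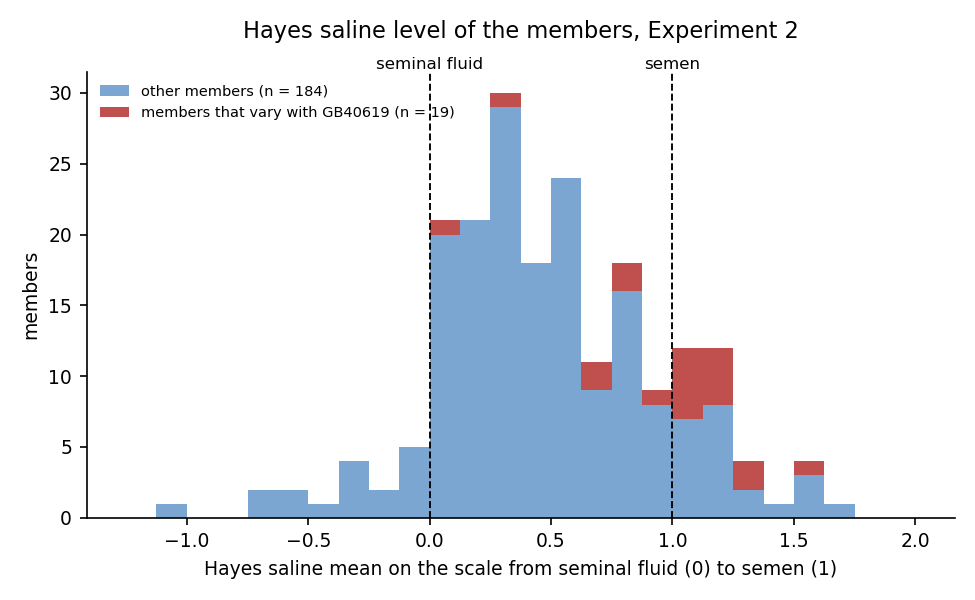
Number of members (y axis) by the position of the Hayes saline mean between the seminal fluid mean (0) and the semen mean (1) of Experiment 2, in log2(CPM + 1). Blue bars are 184 members and red bars are the 19 members that vary with GB40619, stacked. Of the 203 members, 17 lie below 0 and 34 above 1, and most of the red bars lie near or above 1.

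Experiment 1 repeated the comparison of semen with seminal fluid in other queens, none of whose libraries entered the difference that defines the members. There, the share of members higher after semen lay below that of all genes with all libraries, and this order, which was not tested, turned when single libraries were left out. The median difference was 0.05 over the members and 0.07 over all 8571 genes, and 127 of 203 members (62.6%) were higher after semen, against 70.2% of all genes. All semen libraries were above all seminal fluid libraries in 5 members, or 2.46%, against 2.91% of all genes, and below in none, against 1.02%. The difference was at least 0.4 in 12 members and at most -0.4 in 2, and the same counts over all genes were not taken. An alternative chosen after the data were seen took values relative to the median gene of each library. There the median was -0.05 over the members and -0.02 over all genes. By it, 72 members (35.5%) were higher after semen, against 42.8% of all genes. The sign of the members' median therefore rested on the scaling. Single libraries also decided it, since the median was -0.00589 without semen library A and -0.00607 without seminal fluid library B. Without these libraries in turn, 48.3% of the members in both cases were higher after semen, against 78.5% and 75.9% of all genes. Without seminal fluid library C it was 53.7% of the members against 78.1%. The order was the opposite without semen library B (67.5% against 59.8%), without semen library C (75.9% against 62.5%) and without seminal fluid library A (80.8% against 49.3%). Without seminal fluid library A, which was high in the first set of genes, semen was wholly higher in 49 members, or 24.1%, against 6.51% of all genes. Without semen library A it was wholly higher in 9 members, or 4.43%, against 33.0% of all genes. The comparison of members with all genes in Experiment 1 thus had no direction that held over these 6 alternatives.

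Applied to Experiment 1, the rule selected 84 genes, or 0.980%, and 3 of these were members, namely GB50613, GB50505 and GB52324. GB50505 had 32.9, 39.7 and 33.5 CPM after semen, 17.7, 27.5 and 8.82 CPM after seminal fluid and 7.93, 12.3 and 17.0 CPM after mock insemination in Experiment 1. In Experiment 2 it had 6.30, 6.33 and 5.39 CPM after semen, 4.47, 3.46 and 3.45 CPM after seminal fluid and 7.58, 4.69 and 6.25 CPM after Hayes saline. Semen was wholly above seminal fluid in both experiments, but it was wholly above the control only in Experiment 1, and whether the 2 experiments differed in this was not tested.

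GB52324 was among the most abundant members. It had 6680.3, 5269.8 and 7459 CPM after semen, 4629, 4241 and 3991 CPM after seminal fluid and 4375, 5336 and 9167 CPM after mock insemination in Experiment 1. In Experiment 2 it had 5395, 3759 and 4479 CPM after semen, 2422, 1486 and 2281 CPM after seminal fluid and 6245, 2964 and 4193 CPM after Hayes saline. In each experiment the seminal fluid libraries of this gene were the lowest, apart from an overlap with mock library A in Experiment 1, and the control libraries spread across the semen libraries. GB53814 had a difference of 0.33 in Experiment 1, with 42.2, 38.2 and 33.3 CPM after semen and 32.5, 27.3 and 29.7 CPM after seminal fluid, and its mock libraries, at 40.7, 37.6 and 37.3 CPM, were also wholly above seminal fluid. GB42595 had a difference of 0.30, with 67.5, 62.3 and 59.0 CPM after semen, 57.0, 54.2 and 42.6 CPM after seminal fluid and 54.7, 53.7 and 38.3 CPM after mock insemination.

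**Figure D5:**
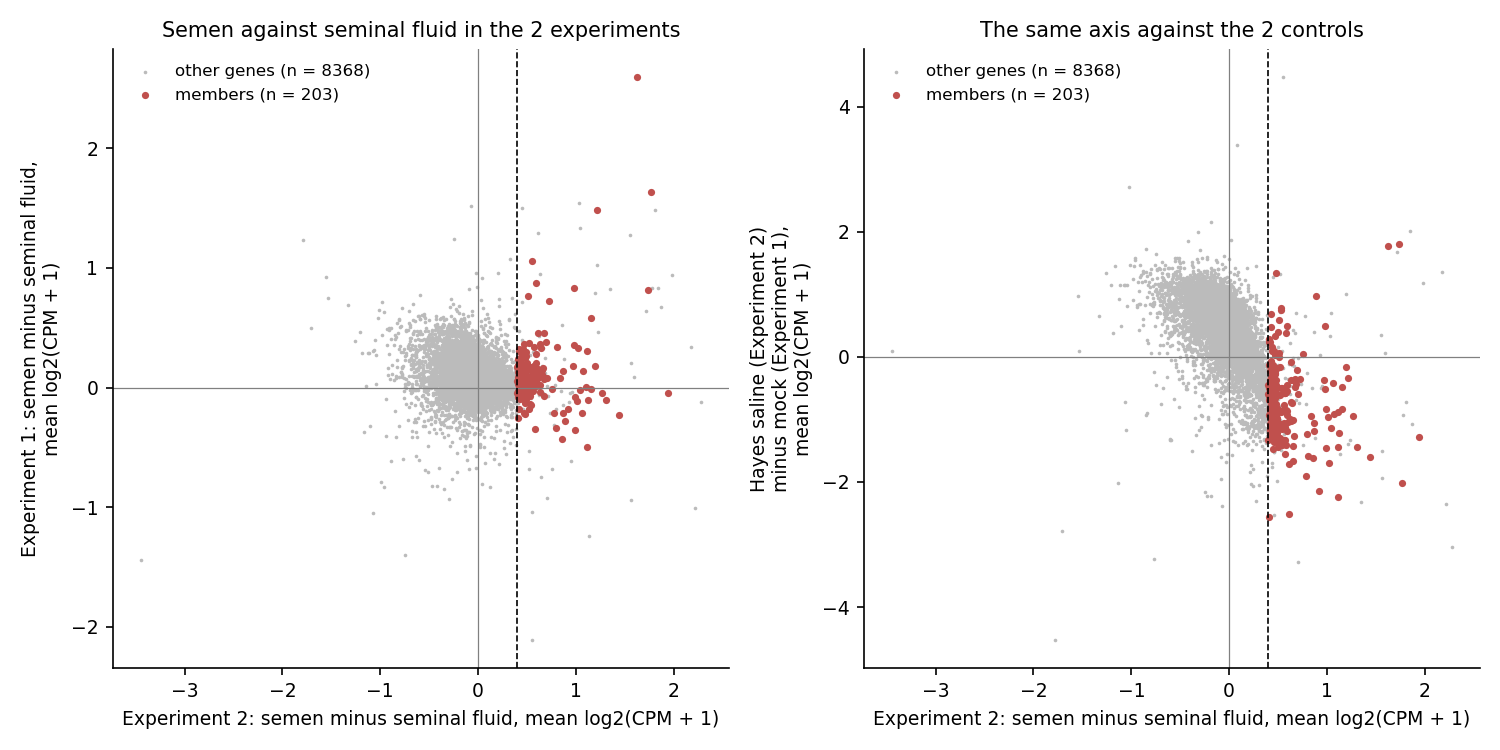
Difference of semen minus seminal fluid in Experiment 2 (x axis in both panels) against the same difference in Experiment 1 (left) and against Hayes saline minus mock (right), all in log2(CPM + 1). Red points are the 203 members, grey points the other 8368 genes with a mean of at least 5 CPM, and the dashed line is the threshold of 0.4 in the rule. On the left the members scatter around a median of 0.05 on the y axis, and on the right 179 of them lie below 0.

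A test with edgeR's quasi-likelihood fit of the 9 libraries of Experiment 1 covered 11761 genes, all 203 members included. At an adjusted p under 0.1 (Benjamini-Hochberg over all genes tested) it called none of the 11761 genes for semen against seminal fluid, so the share called was 0.0%. At an unadjusted p under 0.05, edgeR had 486 genes higher and 194 lower after semen, 4.13% and 1.65% of those tested, and 3 and 1 of these were members (1.48% and 0.493%). DESeq2 called 1 gene, no member, and limma-voom called none. The members that passed the unadjusted threshold in edgeR were GB51305, GB50505 and GB42557, higher after semen, and GB50650, lower, and were named after their values were seen. The log2 fold change of GB50505 was 0.89 (SE 0.37, adjusted p = 0.848, edgeR), and that of GB50613 was 1.25 (SE 0.63, adjusted p = 0.886, edgeR). That of GB40619 was -0.33 (SE 0.59, adjusted p = 0.980, edgeR).

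Of the 11761 genes, 15 (0.128%) were called higher after semen than after mock insemination, and none was a member. At an unadjusted p under 0.05 in edgeR, 10 members (4.93%, against 3.25% of all genes tested) were higher and 4 (1.97%, against 1.85%) lower after semen. The largest change among these was in GB50613, at 2.14 (SE 0.65, adjusted p = 0.603, edgeR). GB50505 had the lowest adjusted p. Its change was 1.498 on the log2 scale (SE 0.38, adjusted p = 0.394, edgeR), and 1.504 (SE 0.34, adjusted p = 0.0835, edgeR) when all 18 libraries were fitted. All semen libraries were above all mock libraries in 16 members (7.88%, against 3.65% of all genes) and below in 7 (3.45%, against 3.21%). The median difference was 0.05 over the members and -0.03 over all genes.

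Seminal fluid against mock insemination gave 19 calls (0.162%), with 18 higher (0.153%) and 1 lower (0.0085%), and again none was a member. At an unadjusted p under 0.05 in edgeR, 11 members (5.42%, against 5.91% of all genes tested) were higher and 4 (1.97%, against 6.93%) lower after seminal fluid. The nearest to the threshold was GB50650. It had 7.26, 6.58 and 5.17 CPM after seminal fluid, 4.79, 4.89 and 5.35 CPM after semen and 3.95, 3.15 and 2.72 CPM after mock insemination. All seminal fluid and all semen libraries were above all mock libraries, and the log2 fold change of seminal fluid against mock was 1.07 (SE 0.20, adjusted p = 0.126, edgeR). In Experiment 2 the same gene had 11.8, 9.99 and 7.77 CPM after semen, 7.50, 3.38 and 4.19 CPM after seminal fluid and 4.05, 8.17 and 11.4 CPM after Hayes saline, so the saline libraries covered nearly the whole range.

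DESeq2 called 4 members in seminal fluid against mock, all higher, or 1.97% of the members, against 281 of all genes tested (2.39%), of which 178 were higher (1.51%). These were GB50650 (1.10, SE 0.22, adjusted p = 0.000417, DESeq2), GB41945 (0.92, SE 0.27, adjusted p = 0.0520, DESeq2), GB42539 (0.89, SE 0.28, adjusted p = 0.0672, DESeq2) and GB40074 (0.69, SE 0.23, adjusted p = 0.0987, DESeq2). In GB41945 seminal fluid gave 70.8, 43.8 and 48.8 CPM, semen 39.2, 43.0 and 75.6 CPM and mock insemination 33.4, 26.4 and 35.4 CPM, and in GB42539 seminal fluid gave 96.1, 53.4 and 54.5 CPM, semen 74.3, 55.5 and 68.2 CPM and mock insemination 46.0, 44.4 and 32.6 CPM. In both genes each fluid was wholly above mock insemination. Across the members, seminal fluid was wholly above mock in 5 (2.46%, against 2.63% of all genes) and wholly below in 7 (3.45%, against 15.1%). The median difference of seminal fluid minus mock was -0.01 over the members and -0.11 over all genes.

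The members differed from other genes in their level in the 2 experiments. In the 2 control groups, which the difference in the rule did not use, the mean after Hayes saline minus the mean after mock insemination had a median of -0.84 over the members and 0.53 over all 8571 genes. It was below 0 in 179 members (88.2%), against 16.9% of all genes. Over the 431 genes of the mirror rule the median was 0.93, and 7 of them (1.62%) were below 0. Across the 8571 genes, which share libraries and are not independent, the correlation of this difference with semen minus seminal fluid in Experiment 2 was -0.54. The controls differ in the fluid and in the experiment, and these cannot be told apart. The same direction held over the whole experiments, where the mean of Experiment 1 minus that of Experiment 2 was above 0 in 182 members (89.7%), against 17.5% of all genes, with medians of 0.79 and -0.56. The filter of 5 CPM used all 18 libraries, for members and all genes alike. A scarce gene could thus pass through its level in Experiment 1, as GB48511 did. This difference of Experiment 1 minus Experiment 2 was above the median of all genes, which by definition divides them evenly, in 196 members. In a separate measure, the median of the members minus the median of all 8571 genes was taken in each library. It was 1.07 to 1.70 in the libraries of Experiment 1. In Experiment 2 it was 0.20 to 0.46 after semen, -0.17 to 0.20 after Hayes saline and -0.50 to -0.05 after seminal fluid.

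Several measures of the libraries moved with the groups of Experiment 2. The share of reads that mapped to more than 1 place was 6.04% to 6.39% after semen, 5.69% to 5.97% after seminal fluid and 5.73% to 6.22% after Hayes saline, against 7.02% to 8.21% in all libraries of Experiment 1. The share of reads that could not be given to a single gene was 4.51% to 4.63% after semen and 4.16% to 4.34% after seminal fluid. Another measure was the summed level of 6 photoreceptor genes, which can come from eye or ocellus tissue left on a dissected brain. It was 638 to 679 CPM after semen, 722 to 857 CPM after seminal fluid and 486 to 641 CPM after Hayes saline. Semen and seminal fluid did not overlap in any of these 3 measures, and their part in the differences of the members was not tested. The phospholipase C gene norpA (GB42579) gave the largest part of the sum. Its means were 404 CPM after semen, 413 CPM after seminal fluid and 288 CPM after Hayes saline. The paper reports norpA as higher after both fluids than in controls. Semen minus seminal fluid was -0.03 for norpA on the log2 scale. For the other genes of the sum it was -0.47 (ninaC), -0.37 (TRP), -0.64 (myosin-IIIb), -0.42 (inaD) and -0.42 (GNB1, under 5 CPM). Among these, only inaD had semen libraries wholly below seminal fluid libraries. Whether the sum reflects eye tissue was not tested. Markers of glands, fat body, muscle, blood cells and glia had no identifier with a name in the sources used here. For brain tissue, 2 neuropeptide precursors and 3 synaptic adhesion genes had names, and all had a mean of at least 5 CPM. So did 8571 genes, and all of these named genes come from the study's list of genes changed in both experiments. Tissue content was therefore not checked.

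None of the 48 genes with a name in the lists used here was in the set. Among them, chaoptin (GB41723) met the rule and was left out by design. Other genes named in the paper were not looked up. Of 22 genes of the phototransduction pathway, the cascade by which photoreceptors turn light into an electrical signal, 19 had a mean of at least 5 CPM, and none was a member, where the rule selected 2.37% of all genes. Of these 19, 5 were higher after semen than after seminal fluid in Experiment 2, and their median difference was -0.20. In 4 all semen libraries were below all seminal fluid libraries, against 807 of all genes (9.42%), and the scaffold gene inaD (GB42762), whose fly protein holds the signalling complex together, was one of them, with means of 155 CPM after semen and 209.8 CPM after seminal fluid. The phospholipase C gene norpA (GB42579) had means of 404 CPM after semen, 413 CPM after seminal fluid and 288 CPM after Hayes saline, a difference between the 2 fluids of -0.03. Of the 35 genes past the level filter in a list that the study chose on these samples as changed in both experiments, none was a member. Chaoptin, a surface protein of fly photoreceptors, came from this list and had 6.99, 5.80 and 6.72 CPM after semen, 5.07, 4.96 and 3.45 CPM after seminal fluid and 1.67, 1.99 and 1.66 CPM after Hayes saline, so its 3 groups did not overlap. The odorant receptor 85f-like gene (GB52377) was likewise ordered, with 19.6, 20.4 and 25.1 CPM after semen, 19.4, 15.5 and 15.1 CPM after seminal fluid and 8.93, 8.40 and 7.67 CPM after Hayes saline, and fell short of the rule at a difference of 0.36. The lists of neuropeptide precursors (2 genes) and synaptic adhesion genes (3 genes) held no member either. At a share of 2.37%, lists of these sizes would hold few members or none, so the absences are no result about them.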

How the data were processed

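The authors removed adapters with Trimmomatic and ribosomal reads with SortMeRNA, aligned stranded single-end reads of 120 bp with STAR 2.4.2a to honeybee assembly 4.5, and counted reads per gene with HTSeq. Its strand and overlap settings are not given in the sources used here, so overlapping and antisense genes may share reads. The deposited values are raw counts, with 5 rows of unassigned reads that were left out of totals and tests. The authors tested with DESeq2 1.10.1.

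Here, CPM was taken over gene totals, and log2 values had a pseudocount of 1. The members, lists and tests were chosen with earlier results of these data known. Comparisons within Experiment 1 used edgeR 4.0.16 (R 4.3.3), TMM scaling, 9 libraries in 1 fit, a filter of 10 counts or more in 3 or more libraries, two-sided p values and a threshold of 0.1. DESeq2 1.42.0, limma 3.58.1, other scalings, filters, thresholds, a replicate block and each library left out were alternatives. Named genes were the 10 largest differences, the 5 highest levels and the members wholly separated in Experiment 1. Added were those nearest the threshold and 5 at each end of the saline scale. Members called by edgeR in the 9-library fit were to be named too, as were members with a name in the lists used here. There were none of either kind. Members called by DESeq2 or in other fits were named after their values were seen. Comparisons within Experiment 2 used the libraries of the rule and were not tested.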

Additional observations from a re-analysis of the deposited data

Results flagged for a closer look

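In 4 members the change against the control had opposite signs in the 2 experiments, with every library of a treatment on 1 side of every control library in each. The differences between experiments were not tested, and the Experiment 2 libraries entered the choice of the members. The same count was not made over all genes, so the 4 cannot be set against a background share. The controls also differed, with mock insemination without fluid in Experiment 1 and Hayes saline in Experiment 2. For seminal fluid against control, GB43778 changed by 0.18 in Experiment 1 and by -0.33 in Experiment 2, a difference of -0.51 on the log2 scale, and GB52955 changed by 0.29 and -0.36, a difference of -0.66. In GB43778, seminal fluid gave 196, 210.1 and 209.6 CPM against 178, 174 and 191 CPM after mock insemination, and 121, 114 and 101.3 CPM against 146, 142 and 135 CPM after Hayes saline. For semen against control, GB42571 changed by -0.73 in Experiment 1 and by 1.16 in Experiment 2, a difference of 1.89, and GB46312 changed by -0.74 and 0.35, a difference of 1.09. In GB42571, semen gave 37.7, 22.0 and 20.3 CPM against 39.2, 42.8 and 48.1 CPM after mock insemination, and 48.8, 42.2 and 33.1 CPM against 24.1, 10.3 and 22.4 CPM after Hayes saline.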

How the results depend on the processing

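TMM scaling gave 302 genes by the rule, of which 172 stood nearer to seminal fluid after saline, with an Experiment 1 median of -0.0379 and 2 wholly higher there. Without the most abundant gene in the totals, saline was wholly below semen in 53. A level of 1 CPM gave 8 wholly higher in Experiment 1. A difference of 0.3 gave 411 genes (234 nearer to seminal fluid, 157 with saline wholly below semen, 126 with saline wholly above seminal fluid, 267 higher and 8 wholly higher in Experiment 1), and 0.6 gave 55 (median saline position 0.812, and 14, 16, 28, 34 and 3 in the same order). Centring on the median gene, chosen after the data were seen, gave -0.0467 and 72 higher. With each library left out, the genes by the rule numbered 170 to 395, the median saline position was 0.348 to 0.697, 66 to 260 stood nearer to seminal fluid, saline was wholly below semen in 54 to 251 and wholly above seminal fluid in 64 to 187, the Experiment 1 median was -0.00607 (without seminal fluid library B, and -0.00589 without semen library A) to 0.155, and 98 to 242 were higher and 4 to 49 wholly higher there. The lows came from leaving out semen library A (170, 64 and 4), semen library B (0.348) and seminal fluid library C (66 and 54) of Experiment 2, and semen library A and seminal fluid library B of Experiment 1 (98 each). The highs came from semen library B (395, 260, 251 and 242) and seminal fluid libraries A (187) and C (0.697) of Experiment 2, and seminal fluid library A of Experiment 1 (0.155 and 49).

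In Experiment 1, semen against seminal fluid gave 1 call by DESeq2 and 0 to 1 with a library left out. Semen against mock gave 4 calls at 0.05, 94 by DESeq2, 5 by limma-voom, 63 (1 member, GB50505) with all 18 libraries and 3 to 6 with a library left out. Seminal fluid against mock gave 281 by DESeq2 (4 members), 4 with only the 6 libraries compared, 619 with all 18 libraries (3 members, GB41945, GB42539 and GB50650) and 4 to 18 with a library left out. GB50650 was the 1 member called with no filter and the 1 called without seminal fluid library C. The cause of these shifts was not tested.

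With a replicate block, semen against mock gave 8 calls and no other call count moved by more than 1.5 times. The letters did not pair the libraries, since correlations of same-letter deviations ran from -0.170 to 0.0664 in Experiment 1 and from -0.196 to 0.111 in Experiment 2.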
